A study of Mus musculus with 6 samples.

Results

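The genes described here are 9 receptors for haematopoietic growth factors: Kit, Flt3, Csf1r, Csf2ra, Csf2rb, Csf3r, Epor, Il3ra and Il7r. They were chosen by name, and every probe set of the array annotated to a single gene symbol was kept if that symbol was one of the 9. This gave 15 probe sets of the 45037 that are not array controls, and 9 genes of 18193. Kit, Csf2ra, Csf2rb and Il7r had 2 probe sets each, Csf1r had 3, and the other 4 genes had 1. A further probe set carried the symbols of both Csf2rb and its neighbour Csf2rb2 and was left out.

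The cells were bone marrow cells sorted as Lin-Sca1+CD150+CD48+, which the study calls committed progenitors. Kit was not named in the gate. Both groups carried c-myc flox2 N-myc flox2 alleles on a mixed background, were 8 weeks old and received 2 daily treatments with pI-pC, an interferon inducer, with the cells taken 3 days after the last one. The double knockout group (dKO) also carried MxCre, a Cre recombinase gene that interferon switches on, and the controls did not, so an effect of MxCre or of Cre activity cannot be told apart from loss of the floxed genes. Each group had 3 Affymetrix arrays, made from 3 pooled mice per dKO array and 2 per control array. For control 1 the tissue entry reads LT-HSCs, while its gate and title are those of the other arrays. The Mx promoter responds to interferon in many cell types besides blood progenitors, and deletion outside the sorted cells was not measured here.

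Growth factor receptors tell a blood progenitor which signals it can hear. Kit, Flt3 and Csf1r belong to one family of receptor tyrosine kinases, in which binding of a paired ligand brings a pair of receptors together so that their kinase domains phosphorylate each other. The other 6 belong to the cytokine receptor superfamily, which has no kinase of its own and signals through JAK kinases and STAT transcription factors. Csf2ra and Il3ra are ligand-specific alpha chains that share the signalling chain encoded by Csf2rb. In the marrow, Kit supports stem cells and early progenitors, Flt3 marks lymphoid and dendritic potential, Csf1r monocytes and macrophages, Csf3r granulocytes, Epor the red cell lineage and Il7r lymphoid progenitors.

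RefSeq promoter sequences (build GRCm38.p6, from 250 bases before to 50 after a transcript start) were matched by symbol for 7 of the 9 genes. The match left out entries on 1 chromosome, and no window was read for Csf1r or Csf2rb. The promoters of Flt3, Csf2ra and Epor are shown because these are the genes with a matched window whose arrays separated the groups in at least 1 probe set. Each is written 5′ to 3′ on the strand of the gene. Capitals mark matches, on either strand, to 3 motifs: CACGTG, the E-box bound by MYC with MAX; AGATAA, bound by GATA factors; and GAGGAA, a core of PU.1 sites.

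Flt3, chr5:147400440-147400739, minus strand: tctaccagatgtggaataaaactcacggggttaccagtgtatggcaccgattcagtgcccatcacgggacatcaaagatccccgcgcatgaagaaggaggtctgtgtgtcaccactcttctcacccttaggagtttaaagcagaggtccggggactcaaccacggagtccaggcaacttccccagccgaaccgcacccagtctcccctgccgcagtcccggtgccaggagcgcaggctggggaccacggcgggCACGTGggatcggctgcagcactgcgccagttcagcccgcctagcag

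Csf2ra, chr19:61228369-61228668, minus strand: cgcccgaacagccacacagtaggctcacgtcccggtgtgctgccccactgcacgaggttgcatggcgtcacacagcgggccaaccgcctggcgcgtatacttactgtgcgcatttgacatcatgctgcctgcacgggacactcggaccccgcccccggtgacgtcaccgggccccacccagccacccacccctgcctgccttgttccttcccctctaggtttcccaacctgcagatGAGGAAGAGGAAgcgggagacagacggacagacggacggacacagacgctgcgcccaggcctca

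Epor, chr9:21963527-21963826, minus strand: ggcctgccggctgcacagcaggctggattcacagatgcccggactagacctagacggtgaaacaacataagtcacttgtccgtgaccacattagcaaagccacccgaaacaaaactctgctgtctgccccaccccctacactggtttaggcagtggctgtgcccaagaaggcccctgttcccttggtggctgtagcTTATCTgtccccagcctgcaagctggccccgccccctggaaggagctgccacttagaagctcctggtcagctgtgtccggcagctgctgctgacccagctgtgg

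The Flt3 window held 1 E-box, whose first base lay at position 4 after the transcript start, counting the start as 1. Of 32851 RefSeq promoters of 300 bases, 7.15% held this motif, and none of the other member windows did. The Csf2ra window held 2 PU.1 cores directly next to each other, at positions -14 and -8, and 28.3% of promoters held at least 1. The Epor window held 1 GATA match on the opposite strand at position -54, against 11.2% of promoters. A GAGGAA match also lay in the Kit and Csf3r windows, and the Il3ra and Il7r windows held none of the 3 motifs. These matches describe the letters of the windows only.

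The targeted genes were read first. Myc lay between 10.47 and 10.95 on the 3 control arrays and between 7.44 and 7.99 on the 3 dKO arrays (deposited log2 values). Of the 3 Mycn probe sets, 1 separated the groups widely (8.93 to 9.57 in control, 3.28 to 4.47 in dKO), 1 was lower in dKO with overlapping arrays and the dimmest was higher in dKO by 0.34. The annotation used here does not say which of them lie in deleted sequence. The Mycn probe set with overlapping arrays was the brightest. Read by it, as each gene was below, Mycn was not called (-0.83, limma adjusted p = 0.133). The 6 arrays had medians of 5.91 to 5.94. The lower quartile was 4.47 on dKO 3 and 4.23 to 4.31 on the other arrays. Control 1 and dKO 1 had high Xist signal (10.57 and 11.32 on 1 of its 3 probe sets, against 4.44 to 5.33 on the other arrays), and leaving out this pair kept the calls of Flt3 and Csf1r below but not that of Csf2rb (adjusted p = 0.12). Of the gate genes with a named probe set, Slamf1 (CD150) and Cd48 both had overlapping groups and did not pass. Slamf1 read 8.74, 7.74 and 8.47 in control and 9.58, 9.31 and 8.40 in dKO. Its difference was 0.78 (limma, unadjusted p = 0.047, adjusted p = 0.264), and that of Cd48 was 0.20 (adjusted p = 0.664). These values do not show that Slamf1 was equal between the groups.

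Among the 9 receptors, Flt3 and Csf1r fell in dKO, Csf2rb rose, and the other 6 did not pass the test when each gene was read by its brightest probe set. Thus 3 of 9 members were called (limma, Benjamini-Hochberg adjusted p under 0.05 over 18193 genes), beside 5.97% of all genes. The 2 lower members stand beside 2.85% of genes called lower, and the 1 higher member beside 3.12% called higher. The median log2 fold change of the 9 was -0.21, against 0.05 over all genes, with a range from -2.73 for Flt3 to 0.83 for Csf2rb. By probe set, 4 of 15 were called lower and 1 higher, beside 1.78% and 1.83% of 45037 probe sets and 3.6% in either direction. The dKO and control arrays did not overlap for 2 members lower and 2 higher by gene, beside 10.7% and 12.7% of genes and 23.4% in either direction. The same count by probe set was 4 lower and 3 higher, beside 10.6% and 10.7%, and 21.3% in either direction. 

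**Figure D1:**
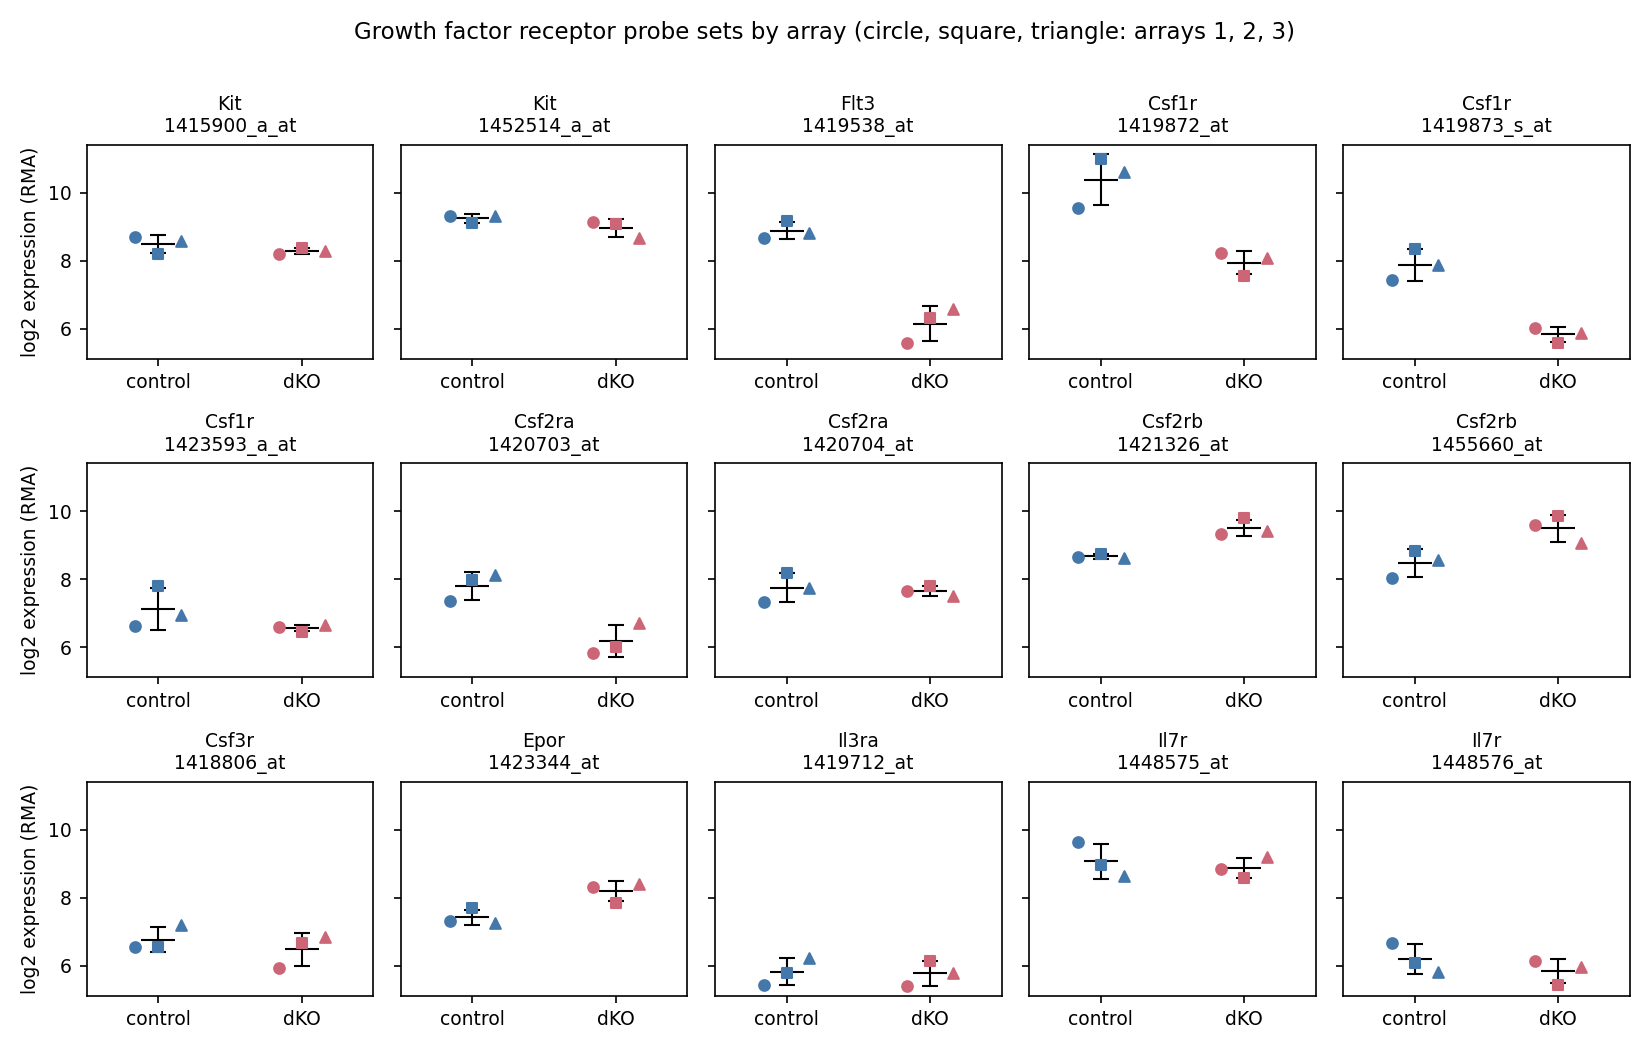
Deposited log2 expression (vertical axis) of the 15 receptor probe sets on the 3 control arrays (blue) and 3 dKO arrays (red), with the mean as a line and bars of 1 SD. Flt3, the first 2 Csf1r probe sets and Csf2ra 1420703_at lie lower in all 3 dKO arrays, and both Csf2rb probe sets and Epor lie higher.

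Of the receptor tyrosine kinases, Flt3 had the largest difference. Its single probe set read 8.67, 9.15 and 8.83 on control arrays 1 to 3 and 5.56, 6.30 and 6.58 on dKO arrays 1 to 3. Every dKO array lay more than 2 log2 units below every control array. Flt3 fell by 2.73 ± 0.27 (SE of the limma fit, n = 3 per group) on the log2 scale, a 6.66-fold lower level (adjusted p = 0.000668). The 95% interval ran from -3.34 to -2.13. The spread among dKO arrays (SD 0.52) was wider than among controls (SD 0.25), with dKO 1 lowest.

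Csf1r, which binds M-CSF and interleukin 34, was read by 3 probe sets that did not move alike. The brightest, 1419872_at, stood at 9.55, 10.99 and 10.61 in control and 8.21, 7.55 and 8.07 in dKO. The groups were separate, and control 1, the array with the differing tissue entry, was the lowest control. Csf1r fell by 2.44 ± 0.35 on this probe set, or 5.42-fold (adjusted p = 0.00398), and the difference was -2.86 without control 1. A second probe set, 1419873_s_at, read 7.42, 8.35 and 7.86 in control and 6.03, 5.58 and 5.88 in dKO. It changed by -2.05 ± 0.26 (adjusted p over all probe sets = 0.00462).

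The last Csf1r probe set, 1423593_a_at, gave 6.61, 7.81 and 6.94 in control and 6.59, 6.46 and 6.65 in dKO. Here dKO 3 lay above control 1, so the groups overlapped, and the difference was -0.55 with a 95% interval from -1.21 to 0.11 (adjusted p over all probe sets = 0.42). The gap between the brightest and this last probe set was 2.94 to 3.67 in control and 1.09 to 1.62 in dKO. These gaps did not overlap between groups (exact permutation test, two-sided p = 0.1, the smallest that 3 against 3 allows; 0.233 adjusted over 7 pairs of probe sets). Where the probe sets lie in the transcript is not given in the tables used here. With the mean of its 3 probe sets, Csf1r changed by -1.68 and stayed called (adjusted p = 0.00706).

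Kit, the receptor for stem cell factor, did not pass on either probe set. The brighter, 1452514_a_at, read 9.31, 9.10 and 9.32 in control and 9.14, 9.07 and 8.66 in dKO, and the groups overlapped. The difference was -0.29 ± 0.19 (adjusted p = 0.504), and its 95% interval, -0.71 to 0.14, leaves out a 2-fold change in either direction. The dimmer, 1415900_a_at, stood at 8.69, 8.19 and 8.58 in control and 8.20, 8.37 and 8.29 in dKO, with a difference of -0.20. Kit therefore lay in a narrow band on all 6 arrays, while Flt3 and 2 of the 3 Csf1r probe sets were called lower in dKO. That contrast between genes was not tested.

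Of the chains of the receptors for GM-CSF, interleukin 3 and interleukin 5, the shared chain was called higher in the gene fit, and the 3 alpha chains did not pass there. Csf2rb, the beta chain, had 2 probe sets, both higher in all dKO arrays. On 1421326_at the control arrays read 8.66, 8.75 and 8.61 and the dKO arrays 9.32, 9.79 and 9.41. Csf2rb rose by 0.83 ± 0.18, or 1.78-fold (adjusted p = 0.0294 over genes and 0.0489 over probe sets). The call lay near the threshold. Leaving out control 1 (adjusted p = 0.0894), control 2 (0.0874), control 3 (0.12) or dKO 2 (0.0728) ended it in the gene fit, with differences from 0.69 to 0.87. Among probe sets it held in 6 of 15 alternatives. The second probe set, 1455660_at, read 8.03, 8.83 and 8.55 in control and 9.58, 9.85 and 9.07 in dKO. Its difference was larger, 1.03 ± 0.27, but it did not pass (adjusted p over all probe sets = 0.0869).

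Csf2rb2, a close paralogue of Csf2rb that serves interleukin 3 alone in mice, was also higher. It read 7.90, 8.30 and 8.33 in control and 9.61, 10.29 and 9.21 in dKO, and rose by 1.52 ± 0.27, or 2.88-fold (adjusted p = 0.0116). Without control 1 and dKO 1 together its adjusted p was 0.0621. Because the genes are close copies, probe sets for one may take signal from the other, so the 2 results are uncertain as separate genes.

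Csf2ra, the GM-CSF-specific alpha chain, gave different readings on its 2 probe sets, both of which the annotation derives from one sequence record. On 1420703_at the control arrays read 7.34, 7.97 and 8.11 and the dKO arrays 5.82, 6.01 and 6.71, with no overlap. This probe set fell by 1.62 ± 0.29, a 3.08-fold lower level (adjusted p = 0.021 among all probe sets). That call was lost when control 2 (adjusted p = 0.0926), control 3 (0.0843), dKO 1 (0.0718) or dKO 2 (0.0726) was left out, with differences from -1.54 to -1.44. On 1420704_at, the one with the higher mean over the 6 arrays, the values were 7.32, 8.18 and 7.74 in control and 7.65, 7.80 and 7.50 in dKO.

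The second Csf2ra reading overlapped between groups, with a difference of -0.09 ± 0.23 and a 95% interval from -0.62 to 0.43. The gap between the 2 probe sets was -0.21 to 0.37 in control and -1.83 to -0.79 in dKO, again without overlap (exact permutation test, two-sided p = 0.1, the smallest possible; 0.233 adjusted over 7 pairs). Csf2ra as a gene thus passed or did not pass according to the probe set read. With the mean of both probe sets it changed by -0.86 (adjusted p = 0.0445). The pairs of probe sets of Kit, Csf2rb and Il7r, and the brighter pair of Csf1r, had overlapping gaps.

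Il3ra, the interleukin 3 alpha chain, read 5.43, 5.79 and 6.22 in control and 5.40, 6.12 and 5.79 in dKO. The groups overlapped almost completely, and the difference was -0.04 ± 0.26 (adjusted p = 0.964; 95% interval -0.62 to 0.53). Its sign turned in 3 of 16 alternatives. Il5ra, the interleukin 5 alpha chain, was at 3.93 ± 0.30 (SD, n = 3) in control and 3.86 ± 0.56 in dKO, at the 14.5th percentile of all genes by mean.

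Of the remaining receptors, Epor, which carries the erythropoietin signal of red cell precursors, was higher in every dKO array without passing the test. It read 7.32, 7.68 and 7.25 in control and 8.33, 7.85 and 8.41 in dKO. Control 2 was the highest control and dKO 2 the lowest dKO array, and these were close to each other. The difference was 0.77 ± 0.21 (adjusted p = 0.0691), and it passed without dKO 2 (0.95, adjusted p = 0.0441), with array weights (0.0295) and with dim genes left out (0.0381).

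Csf3r, the G-CSF receptor, had control values of 6.56, 6.54 and 7.19 and dKO values of 5.94, 6.66 and 6.85. The groups overlapped, with a difference of -0.28 ± 0.28 and a 95% interval from -0.90 to 0.34. Il7r, the interleukin 7 alpha chain, read 9.63, 8.97 and 8.62 in control and 8.84, 8.59 and 9.18 in dKO on its brighter probe set. The difference was -0.21 ± 0.27 (adjusted p = 0.787), and it was 0.07 without control 1, the highest array. On the dimmer Il7r probe set it was -0.34, with overlapping groups. Of the 2 lymphoid receptors, Flt3 was therefore called lower, whereas the Il7r interval of -0.82 to 0.41 covers 0; the difference between the genes was not tested.

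**Figure D2:**
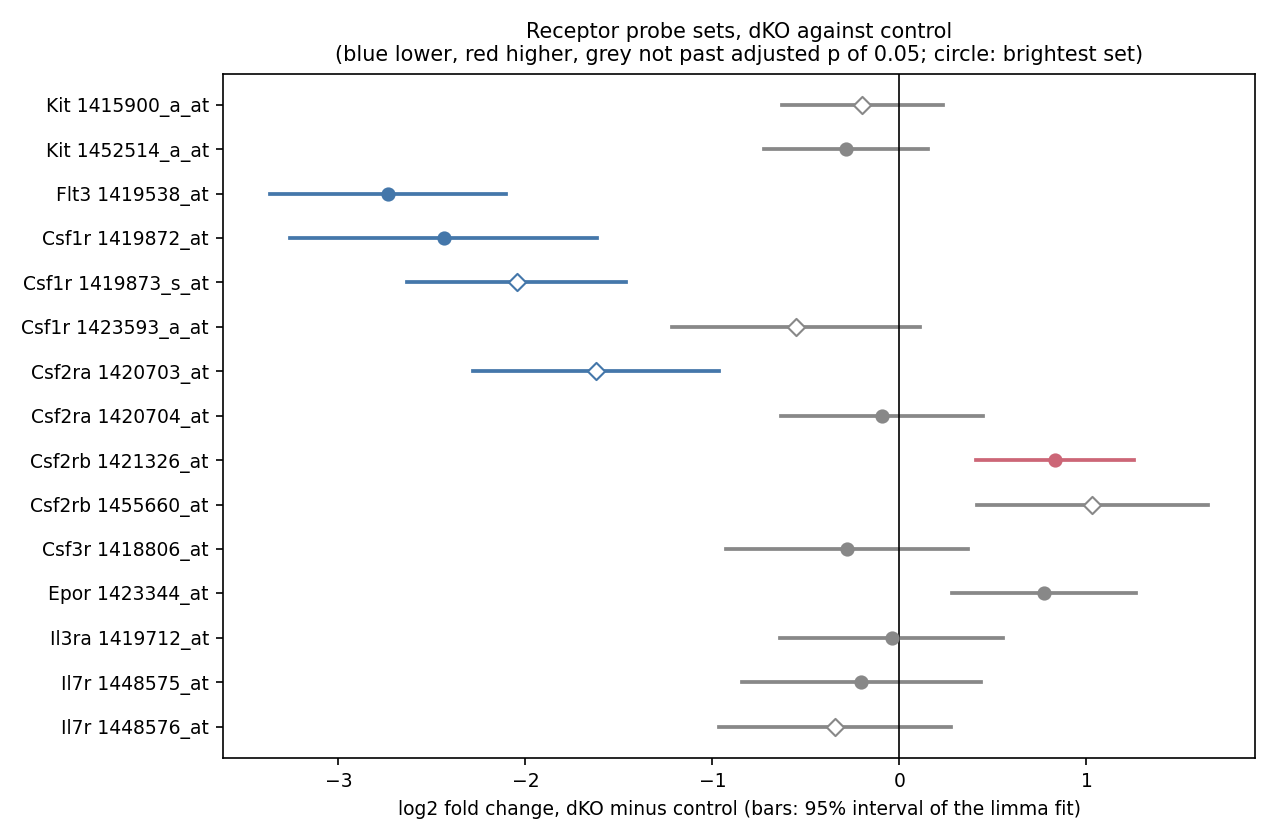
Log2 fold change (horizontal axis, dKO minus control) of each receptor probe set in the fit over all probe sets, with 95% intervals as bars and filled circles for the brightest probe set of each gene (open diamonds for the others). Flt3 (-2.73) and 2 Csf1r probe sets (-2.44 and -2.05) lie furthest left, Csf2ra is split between -1.62 and -0.09, and Csf2rb (0.83 and 1.03) and Epor (0.77) lie right of 0.

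The genes whose profiles over the 6 arrays lay nearest to the called members were found by the root mean square difference between profiles, each centred on its own mean. Nearest to Flt3 were Ifi30, a lysosomal thiol reductase of antigen-presenting cells (0.236), Irf8, a transcription factor of monocyte and dendritic cell fate (0.237), and Rassf4 (0.245), in log2 units. Ifi30 read 10.45, 11.30 and 10.84 in control and 7.50, 8.09 and 7.98 in dKO. Nearest to Csf1r were Clec7a, the beta-glucan receptor dectin-1 (0.274), the serine carboxypeptidase gene Scpep1 (0.328) and Cd163, a macrophage scavenger receptor (0.343). Nearest to Csf2rb were Manf (0.0863), Elavl2 (0.0927) and Rtp4 (0.0959). These distances rest on 6 arrays and include the step between the groups.

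Because the RNA came from sorted bulk cells, fewer cells of a type and less RNA per cell cannot be told apart. The lineage-negative gate is meant to remove mature cells that carry lineage antigens, and the labels do not name the antibodies used for it. The list mean of monocyte and macrophage markers was lower in dKO, as Csf1r and Flt3 were. Of 4 measured, Ctss (-1.83) and Lyz2 (-1.62) fell, and Cd14 and Adgre1, both dim, were at 4.82 ± 0.21 and 4.80 ± 0.54 (SD, n = 3) in control, and 4.45 ± 0.36 and 4.41 ± 0.16 in dKO. The mean level of the list ran from 7.99 to 8.12 in control and from 6.70 to 7.18 in dKO. Within the groups the order of arrays differed from that of Csf1r. Control 1 was the highest control for this list but the lowest for Csf1r (9.55 on its brightest probe set) and Flt3 (8.67). Array dKO 1 was the lowest dKO array for the list and for Flt3 (5.56), but the highest for Csf1r (8.21). Of 5 dendritic cell markers Cd209a (-1.79) and Bst2 (-1.16) fell, and Siglech (-0.95) did not pass (adjusted p = 0.0593). Itgax (-0.08) and Batf3 (0.18) had overlapping groups. The list means were 7.14 to 7.56 in control and 6.32 to 6.88 in dKO. Of 5 neutrophil lineage markers 0 passed by limma (3 had an unadjusted p under 0.05, beside 3318 of 18193 genes). Their means were 7.43 to 7.77 in control and 5.59 to 7.16 in dKO. Of all genes, 2.85% were called lower.

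Markers of other lineages were higher in dKO, as Csf2rb was. Of 5 markers of mast cells and basophils, which respond to interleukin 3, 4 rose: Cma1, Mcpt8, Fcer1a and Cpa3 (the last not without control 1 and dKO 1 together, adjusted p = 0.0564). The list's mean ran from 6.59 to 6.78 in control and from 8.17 to 9.43 in dKO. Array dKO 2 was the highest for this list, for both Csf2rb probe sets and for Csf2rb2. For the list's mean dKO 1 (8.56) lay above dKO 3 (8.17), as for Csf2rb 1455660_at and Csf2rb2. On the called Csf2rb probe set dKO 3 (9.41) lay above dKO 1 (9.32). For Epor, which did not pass, dKO 2 was the lowest dKO array. Of 5 megakaryocyte markers 3 rose: Ppbp (4.87), Pf4 (1.53) and Itga2b (1.51). Gp9 (0.25) and Vwf (0.21) had overlapping groups. The mean of this list was 7.85 to 8.05 in control and 9.36 to 9.73 in dKO. Of 4 erythroid markers 1, Car1, rose. Klf1 (0.58) did not pass, and Hba-a1 (0.47) and Ermap (0.01) had overlapping groups. The mean of the erythroid list was 8.14 to 8.29 in control and 8.49 to 9.04 in dKO. The Car1 call (0.78, adjusted p = 0.0358) held in 9 of 17 alternatives, and its single probe set was not called over all probe sets. In the gene fit the call was lost with the Xist level as a covariate (adjusted p = 0.0517). It was also lost without control 1, control 2, control 3, dKO 1 or dKO 2, with differences from 0.69 to 0.86 in these leave-outs. Of 6 T and NK cell markers 4 rose (list mean 6.52 to 7.20 in control, 8.42 to 8.54 in dKO). Of all genes, 3.12% were called higher. Of 4 B cell and 5 stem cell markers 0 passed by limma (0 and 1 with an unadjusted p under 0.05, beside 3318 of 18193 genes). The part of the marker shifts in the receptor values was not tested.

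**Figure D3:**
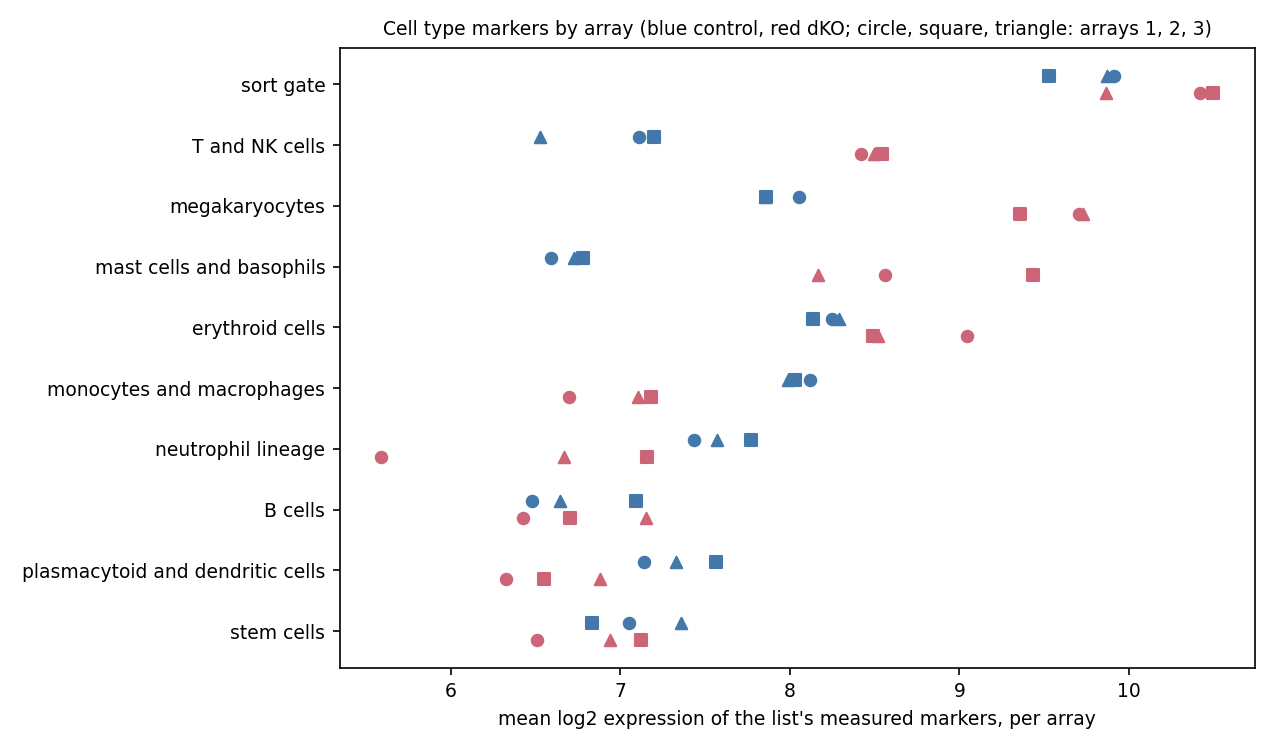
Mean log2 expression (horizontal axis) of the measured markers of each cell type on each array, control in blue and dKO in red. The list means of monocyte, dendritic and neutrophil lineage markers lie lower in dKO. Those of mast cell, megakaryocyte, erythroid and T and NK cell markers lie higher, and those of B cell and stem cell markers overlap.

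Ligands of these receptors are made largely by stromal and immune cells. Of 12 listed, 9 were measured and the other 3 were not analysed here. Of the 9, 0 passed by limma in either direction, and 1 had an unadjusted p under 0.05, beside 3318 of 18193 genes. For 0 of the 9 were the groups separate, beside 23.4% of genes. Il7 had the smallest p (4.55 ± 0.36 in control, 5.10 ± 0.33 in dKO, difference 0.54, adjusted p = 0.274), followed by Csf3 (difference 0.23). The median difference was 0.15 over the list and 0.05 over all genes.

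Other cytokine receptors moved both ways. Of 13 measured, 3 fell and 2 rose, beside 2.85% and 3.12% of all genes, with a median of -0.32 over the list. The lower ones were Il6st, Il6ra and Lifr. Il6st, the signalling chain gp130, read 9.82, 10.31 and 9.99 in control and 8.67, 8.13 and 8.52 in dKO and fell by 1.60 ± 0.21, or 3.03-fold (adjusted p = 0.00251). All 4 of its probe sets were called lower, from -2.54 to -1.60. Il6ra, its interleukin 6 partner, fell by 2.04 ± 0.37 (adjusted p = 0.0133), a call lost without control 2 (0.062), control 3 (0.0513) or dKO 2 (0.0577). Its other probe set was at -0.80 and was not called.

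Lifr, the leukaemia inhibitory factor chain, fell by 0.89 ± 0.21 (adjusted p = 0.0374). Leaving out any array other than dKO 1 ended this call, with an adjusted p of 0.149 in the case of control 2. Over all probe sets, 0 of the 3 Lifr probe sets were called by limma. Tgfbr2, a receptor for the growth inhibitor TGF-beta, rose by 1.27 ± 0.25 (adjusted p = 0.0167). Its 3 probe sets ran from -0.09 to 1.27, and the call was lost without control 3, dKO 1 or dKO 2 (adjusted p up to 0.104 over all alternatives). The interferon receptor chains Ifngr2 (-0.84) and Ifnar2 (-0.60) were lower in all 3 dKO arrays without passing (adjusted p = 0.0666 and 0.0738).

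Below the receptors, 0 of 17 kinases and adaptors passed by limma (4 had an unadjusted p under 0.05, beside 3318 of 18193 genes). Jak2, which serves Epor and the beta chain, was at 9.81 ± 0.19 in control and 10.04 ± 0.18 in dKO. The smallest p belonged to the docking protein Gab2 (0.65, adjusted p = 0.112) and the kinase Jak1 (0.57, 0.142), and the list's median was 0.17. Of 6 STAT factors 2 rose and 0 fell, beside 3.12% and 2.85% of all genes. Stat4 rose by 1.04 ± 0.24 (adjusted p = 0.0345), but its single probe set was not called over all probe sets. Stat3 rose by 0.78 ± 0.17 (adjusted p = 0.028), though its 4 probe sets ran from -0.06 to 0.78. With the mean of its probe sets Stat3 was at 0.41 and did not pass (adjusted p = 0.152). Both calls lay near the threshold: 0 STAT factors were called without control 1, control 3, dKO 1 or dKO 2, and 1 without control 2 or dKO 3. In the fits with 1 array left out that ended a call, the differences were 0.74 to 0.85 for Stat3 and 0.83 to 1.16 for Stat4. Stat5a and Stat5b, which most of these receptors use, differed by -0.15 and -0.35 and did not pass.

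Of 15 negative regulators 4 rose and 0 fell, beside 3.12% and 2.85% of all genes, with a median of 0.16 over the list. Cish, an inhibitor that STAT5 induces, read 5.77, 6.16 and 5.57 in control and 9.66, 9.38 and 9.77 in dKO, and rose by 3.77 ± 0.21, or 13.6-fold (adjusted p = 2.9e-05). Socs2 rose by 2.41 ± 0.26 and Socs3 by 2.42 ± 0.29, and all 3 Socs3 probe sets were called higher. The 6 Socs2 probe sets ran from 1.02 to 2.65, and 3 of them were called higher. Dok2, an adaptor that dampens RAS signalling, rose by 1.63 ± 0.18. Socs1 (0.27), the phosphatase gene Ptpn6 (-0.31) and the ubiquitin ligase gene Cbl (-0.24) did not pass. Leaving out any 1 array ended none of these 4 calls.

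Of 15 transcription factors known to act on receptor genes, 2 fell and 2 rose, beside 2.85% and 3.12% of all genes. The list's median was 0.04. Irf8 fell by 2.33 ± 0.30 (adjusted p = 0.0022) and Hoxa9, a factor of immature cells, by 0.76 ± 0.16 (adjusted p = 0.0226), though the other Hoxa9 probe set was at -0.29. The Hoxa9 call was lost with the mean of probe sets (-0.52, adjusted p = 0.129) and without control 1, control 2, control 3 or dKO 1, with differences from -0.78 to -0.74 in these leave-outs. Gata2 rose by 1.34 ± 0.24 (adjusted p = 0.0115) and Tal1, a partner of GATA factors, by 1.13 ± 0.18 (adjusted p = 0.00597), a call lost without control 1 and dKO 1 together (1.02, adjusted p = 0.0756). Gata1, which drives Epor, was higher in all dKO arrays at 0.74 and did not pass (adjusted p = 0.0575). Spi1, the gene of PU.1, which drives Csf1r and Csf2ra, was at 7.73 ± 0.45 in control, against 7.30 ± 0.60 in dKO, and did not pass (adjusted p = 0.576), nor did Cebpa (-1.27, adjusted p = 0.191), whose control arrays had an SD of 1.02.

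**Figure D4:**
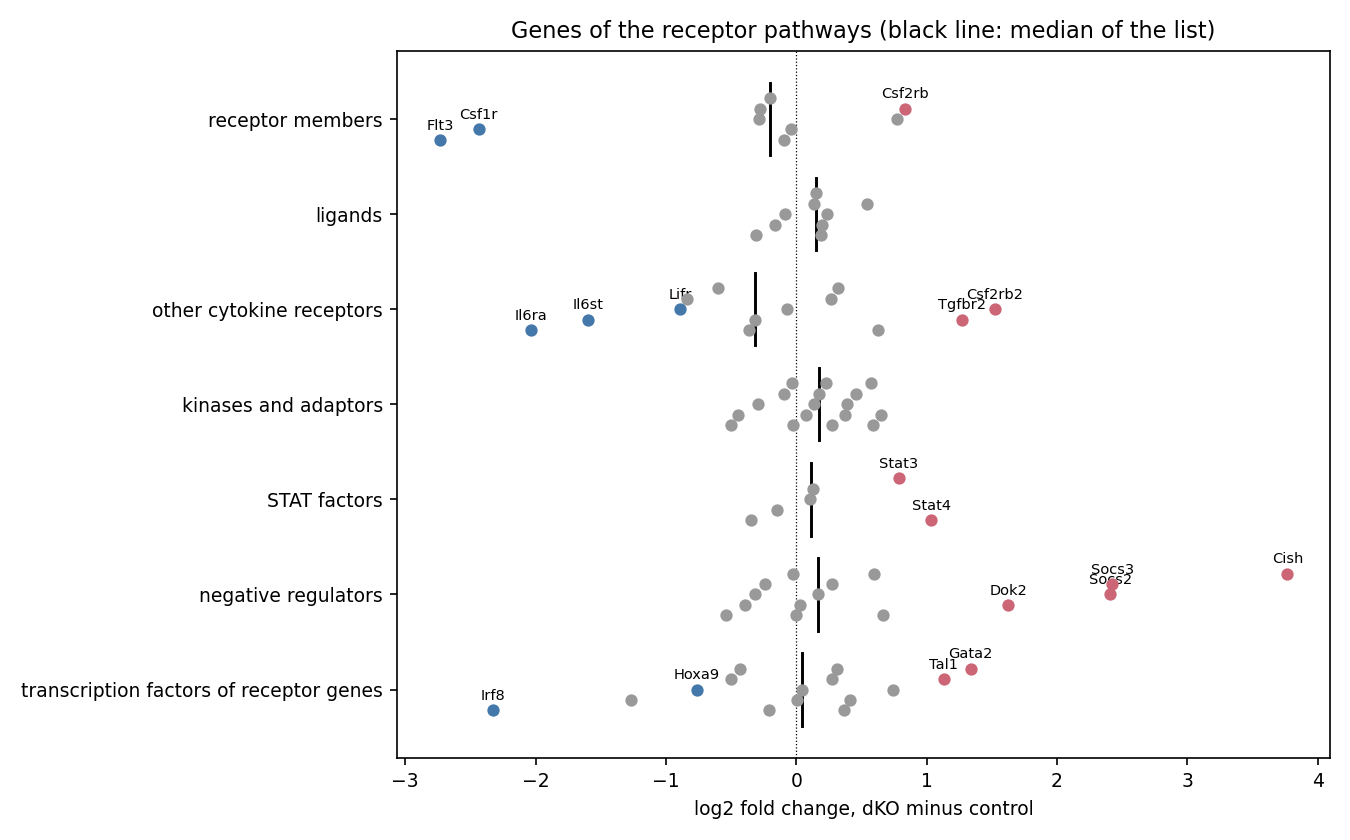
Log2 fold change (horizontal axis, dKO minus control) of every measured gene of the receptor, ligand, signalling and transcription factor lists, with called genes named in blue (lower) or red (higher) and the list median as a black line. Cish (3.77) lies furthest right and Flt3 (-2.73) furthest left, and the list medians stay between -0.32 and 0.17.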

How the data were processed

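The deposited values are log2 expression per probe set, which the authors made with RMA (named in the submitters' processing notes), a method of background correction, quantile normalization and probe summary. Its version is not given in the sources used here, nor whether the 6 arrays were processed together. Per the labels' protocols, RNA was amplified in 2 rounds, which can raise the spread of dim genes. Probe set names came from the platform annotation, with symbols updated through gene identifiers for 34741 of 34945 probe sets with 1 symbol. The 64 Affymetrix controls were left out; 932 probe sets had several symbols and 9160 none.

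Groups came from the sample titles. limma 3.58.1 in R 4.3.3 (lmFit, eBayes, group only, two-sided) was run over 18193 genes, each by its probe set with the highest mean, and over 45037 probe sets, with Benjamini-Hochberg adjustment over all and a threshold of 0.05. Values not said to be over probe sets come from the gene fit. Errors describe the spread between pools, and the number of arrays limits the precision. Gene lists, named genes (the 9 members, list members past the threshold or with the smallest p, and the 3 nearest profiles) and alternatives were chosen with earlier results of these data known; Il5ra, Jak2, Stat5a, Stat5b, Socs1, Ptpn6, Cbl, Ifngr2, Ifnar2, Gata1, Spi1 and Cebpa were added to the named genes with their values in view. The gene fit was tested on simulated data, in 20 runs of 18193 genes with 200 changed in each. Noise was normal and independent, with each gene's own SD within groups. The fit recovered 2.2% of 1.5-fold, 34.4% of 2-fold, 87.2% of 4-fold and 96.3% of 8-fold changes, and 4.01% of its calls were false. These rates hold for that setting only. Genes that did not pass may therefore hold changes of 2-fold or less, and some may hold larger ones. Alternatives covered dim genes, the probe set choice, scaling, array weights, the variance model, a replicate block, Xist level and leaving out arrays. Figures were drawn with matplotlib 3.10.9.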

Additional observations from a re-analysis of the deposited data

How the results depend on the processing

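Flt3 and Csf1r stayed called lower in all 17 alternatives of the gene fit (Flt3 from -2.99 to -2.44, Csf1r from -2.99 to -1.68). With each array left out in turn, 2 to 3 members were called by gene (2 lower in each), and 3 to 4 member probe sets. By list, the counts then ran from 2 to 5 for other cytokine receptors, from 0 to 1 for STAT factors, from 3 to 5 for transcription factors, and stayed at 4 for negative regulators and 0 for ligands and for kinases and adaptors. Without control 1 and dKO 1 together, 2 other cytokine receptors and 0 STAT factors were called. With the mean of probe sets, 1 ligand, 1 kinase or adaptor and 1 STAT factor were called, and with array weights 1 kinase or adaptor; the causes were not tested. Correlations of deviations between control and dKO arrays of the same number were 0.0561, -0.000453 and 0.0188 over genes. Between arrays of different numbers they ran from -0.0521 to 0.0384. With so few arrays, these values cannot show whether replicate numbers pair the arrays. With a replicate block 1 STAT factor was called (Stat3 at adjusted p = 0.061), and Lifr (0.0578), Hoxa9 (0.0561), Car1 (0.0724) and Csf2rb over probe sets (0.0816) did not pass. Signs turned, with no call, for Il3ra with Xist as a covariate (0.022) and for Il7r without control 1 and dKO 1 together (0.091). With single arrays left out, Csf2ra on 1420704_at ran from -0.31 to 0.12, Il3ra from -0.23 to 0.16 and Il7r from -0.43 to 0.074, turning sign without control 2 (Csf2ra), without control 3 (0.16) or dKO 1 (0.14) (Il3ra) and without control 1 (Il7r). Over all genes 1086 were called, against 572 without control 2, 576 without control 3, 683 without dKO 1, 578 without control 1 and dKO 1 together and 1697 with array weights. Over probe sets 1622 were called, against 918, 661, 691, 864 and 1060 without control 1, control 2, control 3, dKO 1 and dKO 2, 565 without the pair and 2509 with array weights. The number of arrays limits the precision, and RMA understates the differences of dim probe sets.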
